A study of Mus musculus with 24 samples.

Results

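The EGF receptor family and its ligands were examined as a set of 10 genes around which Cdx2 occupancy had been mapped in mouse colon organoids. The set comprised the receptors Egfr, Erbb2, Erbb3 and Erbb4, the ligands Areg, Ereg, Btc, Hbegf and Tgfa, and Lrig1, which restrains the receptors. Peaks of the 12 Cdx2 libraries that overlapped by 1 bp or more were merged into 61454 regions. A region was assigned to a gene when a peak summit lay in the gene body or within 20 kb of either end in GENCODE vM21. By this rule 103 of the 61454 regions belonged to 9 of the 10 genes, and Erbb2 had none. Of the 206283 peaks analysed, 364 fell in these regions.

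The libraries were made by ChIPmentation, in which a transposase adds sequencing adapters to immunoprecipitated chromatin, with an antibody against Cdx2, which is a homeobox factor that keeps intestinal identity. Proximal and distal colon organoids of 3 female mice aged 8 weeks had grown for 4 months in WENR-plus, a medium that supplies Wnt3a, EGF, Noggin and R-spondin 1. For WENR-minus, they spent 2 days after plating in WENR-plus and then 3 days without the 4 factors, so EGF withdrawal cannot be told apart from withdrawal of the other factors. Each combination of site and medium held 3 biological replicates. The study's organoid culture methods describe mice with a heterozygous Cre-inducible BrafV600E allele and a heterozygous tdTomato reporter, taken here to hold for every group. Its ChIP-seq methods name 3 mice without genotype, sex or age. No Cre was described for these cultures, which were treated as normal colon. Peak lists hold no transcript levels, so the tissue label could not be checked by markers, and nothing here measures the expression of the genes.

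The receptors are tyrosine kinases that pair on the cell surface when a ligand binds and pass the signal to the RAS, RAF, MEK and ERK kinases and to PI3 kinase. Ligands are made as membrane-bound precursors and released by ADAM proteases. In colon crypts this signalling drives proliferation of stem and progenitor cells, which is why EGF is part of organoid medium, and Lrig1 is best known there as a feedback inhibitor and as a marker of such cells.

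The lists differed widely in length, from 5608 peaks in distal WENR-plus replicate 3 to 42192 in proximal WENR-plus replicate 2. The lists hold no read totals, and the depths stated by the study were not used here, so libraries are described by list length. For each peak the files give a fold enrichment over the matched input at the summit, and its rank within its own list was used as a percentile, from 0 for the weakest to 100 for the strongest peak. A region without a peak in a library has no value there, and the absence of a call is not evidence that Cdx2 was absent. No pair of lists shared more than 0.0760% of the shorter list's peak intervals exactly, so no library was a copy of another.

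Ligand regions on the stretch of chromosome 5 that holds Ereg, Areg and Btc include regions called in all 12 libraries and are shown as the 101 bases around the strongest summit (mm10, 5′ to 3′). Regions are named by the distance of that summit from the annotated gene start along the direction of transcription. Capitals mark the Cdx2 motif, which was searched as TTTATGA or TTTATGG or TTTATTA or TTTATTG on either strand. The Btc sequence holds none of the 4 words.
Ereg +2.0 kb (chr5:91076548-91076648, plus strand): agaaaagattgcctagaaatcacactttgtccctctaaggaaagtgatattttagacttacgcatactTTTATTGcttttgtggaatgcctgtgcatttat
Ereg +31.7 kb (chr5:91106314-91106414, plus strand): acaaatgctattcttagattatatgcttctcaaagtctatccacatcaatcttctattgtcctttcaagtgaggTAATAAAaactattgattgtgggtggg
Ereg +35.7 kb (chr5:91110275-91110375, plus strand): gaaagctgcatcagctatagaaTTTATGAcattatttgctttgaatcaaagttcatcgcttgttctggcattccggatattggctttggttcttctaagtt
Btc -13.8 kb (chr5:91416781-91416881, plus strand): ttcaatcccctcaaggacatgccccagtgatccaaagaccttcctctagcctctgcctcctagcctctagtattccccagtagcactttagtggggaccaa

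Lrig1 had the densest set of shared regions outside the ligands. The sequences below cover its only gene-body region with peaks in at least 6 libraries and 2 regions that the naming rule took for their calls. They also cover 1 of the 2 with peaks in most libraries.
Lrig1 +3.3 kb (chr6:94696838-94696938, plus strand): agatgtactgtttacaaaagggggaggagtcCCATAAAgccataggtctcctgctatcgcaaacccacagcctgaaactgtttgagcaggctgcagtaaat
Lrig1 -7.6 kb (chr6:94707700-94707800, plus strand): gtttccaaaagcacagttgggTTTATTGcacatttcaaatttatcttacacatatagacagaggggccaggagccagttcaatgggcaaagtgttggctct
Lrig1 -9.9 kb (chr6:94710023-94710123, plus strand): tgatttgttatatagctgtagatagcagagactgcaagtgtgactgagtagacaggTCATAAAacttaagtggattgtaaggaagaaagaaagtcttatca
Lrig1 -18.9 kb (chr6:94718982-94719082, plus strand): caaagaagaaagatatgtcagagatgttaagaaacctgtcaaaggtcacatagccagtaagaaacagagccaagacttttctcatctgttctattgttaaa

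The Erbb4 sequence shown next belongs to the receptor region with peaks in most libraries. It holds none of the Cdx2 words at the strongest summit.
Erbb4 +564.9 kb (chr1:68543143-68543243, plus strand): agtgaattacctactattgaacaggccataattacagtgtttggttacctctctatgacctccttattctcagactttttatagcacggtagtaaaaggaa

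Across the set, 53 of the 103 regions (51.5%, Wilson 95% interval 41.9 to 60.9) had a Cdx2 word within 50 bp of the strongest summit. The same was true of 57.1% of all 61454 regions, and of 8.25% of windows of the same length placed 1000 bp to either side of the members' summits. The share was 12 of 21 among member regions with peaks in at least 6 libraries and 41 of 82 among the others. An AP-1 word (TGANTCA, either strand) was present in 7 of 103 member windows (6.80%, interval 3.33 to 13.4) and in 6.09% of all regions. The Wilson intervals cover counting error only.

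Regions were unevenly shared among libraries. Of the 103, 3 had a peak in all 12 libraries, against 3.38% of all regions. In all, 21 had one in at least 6 libraries (20.4%, background 19.9%), and 43 had one in 1 library only (41.7%, background 42.2%). These shares lay close to the background. All 3 regions called throughout belonged to ligands. Ligand genes held 10 of the 21 widely shared regions within windows that summed to 365 kb, receptors 7 within 1449 kb, and Lrig1 4 within 136 kb. Each member is described below in the order of its role.

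**Figure D1:**
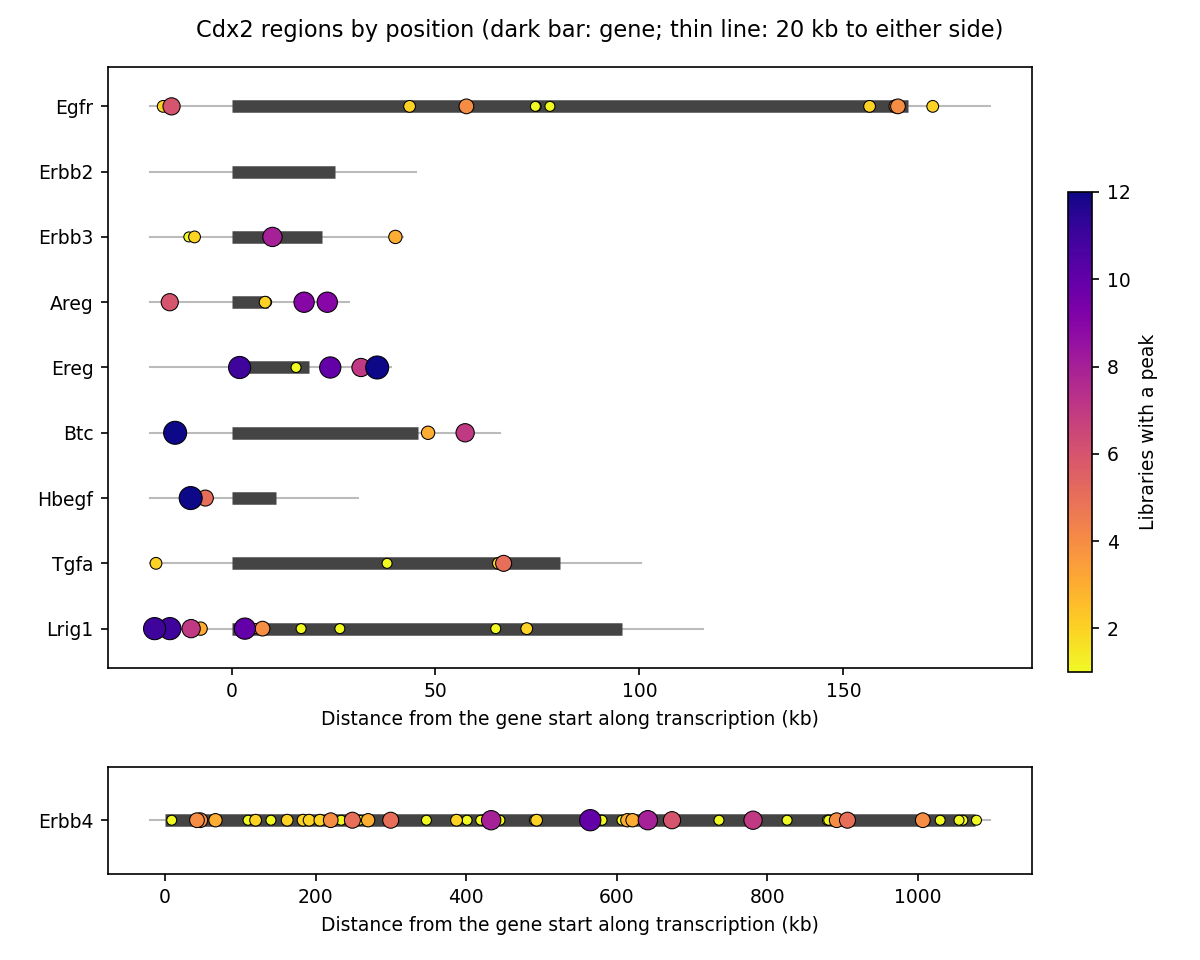
Position of every Cdx2 region of the 10 genes, as the distance of the strongest summit from the gene start in kb along transcription, with Erbb4 on its own axis because the gene is far longer. Dot size and colour give the number of the 12 libraries with a peak, and the 3 regions in all 12 lie at Ereg, Btc and Hbegf.

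Egfr, the receptor for EGF itself and for all 5 ligands of the set, spans 166 kb on chromosome 11 (16752203 to 16918158, plus strand) and had 11 regions. None was called in more than 6 libraries, and 3 were called in 1 only. The most widely called lay 14.7 kb upstream (16737295 to 16737961, intergenic) with peaks in 5 WENR-plus libraries, 3 proximal and 2 distal, and in 1 WENR-minus library, a proximal one. Its percentiles were 57.7, 60.6 and 20.3 in proximal WENR-plus replicates 1 to 3, 34.4 in proximal WENR-minus replicate 1, and 33.5 and 72.1 in distal WENR-plus replicates 1 and 2. The 5 against 1 libraries of the media gave an unadjusted p of 0.0801 and an adjusted p of 1.00 by the exact Fisher test. Near the 3′ end, a region overlapping an Egfr exon (16915284 to 16915726) was called in 4 proximal and no distal library, with percentiles of 46.5 to 65.8 (exact Fisher p = 0.0606, adjusted p = 0.582).

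Erbb2, the receptor without a ligand of its own that pairs with the other receptors, had no region in any library. The nearest peak lay 58.5 kb from the gene and was called in 1 library. Among 21911 protein-coding genes, 33.6% likewise had no region under the same rule.

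Erbb3, a receptor for neuregulins with a weak kinase domain, had 4 regions on chromosome 10. The main one lay in an intron 10 kb from the start (128579351 to 128579788) and had peaks in 8 libraries, among them all 3 of proximal WENR-plus and all 3 of distal WENR-minus. Proximal percentiles were 70.1, 57.7 and 33.7 with the factors and 58.3 without them, and distal ones were 18.7 with the factors and 15.6, 58.7 and 3.5 without them. They overlapped between the groups. In lists of equal length, each reduced to its 5608 peaks of highest −log10 q, 1 library kept it.

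Erbb4, a receptor for neuregulins that also binds Btc, Hbegf and Ereg, is 1076 kb long (chromosome 1, 68032186 to 69108059, minus strand) and held 55 of the 103 regions. At 4.93 regions per 100 kb its density was close to that of the other members together, 5.76, against a median of 1.84 over protein-coding genes. The number of Erbb4 regions per library ran from 1 to 44 and was highest in the longest lists, with 44, 22 and 19 in the 3 longest and 1 to 3 in the 4 shortest. Proximal WENR-plus replicate 3 had 3 such regions among 13592 peaks, while proximal WENR-minus replicate 2 had 13 among 15940. Without proximal WENR-plus replicate 2, the number of Erbb4 regions was 36 and that of all members 78.

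Few Erbb4 regions were shared widely. The leading one, 565 kb into the gene in an intron (68542709 to 68544448), had a peak in all 6 proximal libraries, all 3 distal WENR-plus libraries and 1 distal WENR-minus library. Its percentiles were 98.5, 97.6 and 95.2 in proximal WENR-plus and 95.7, 77.4 and 85.0 in proximal WENR-minus. Distal values were 33.5, 76.7 and 57.2 in WENR-plus and 62.2 in WENR-minus replicate 3. Every proximal percentile was above every distal one, though library summits spread over 912 bp of the merged region. The share of all regions that separate likewise was not counted. Percentiles depend on the list, and proximal lists were longer on average. The fold enrichments overlapped, at 7.787 in proximal WENR-minus replicate 2 and 7.995 in distal WENR-plus replicate 2. All other proximal folds were above every distal one. The median percentile of 81.2 at this region was second among the 21 regions called in at least 6 libraries. The proximal difference between media was 11.0 percentile points (SE 5.46, 95% interval -2.86 to 24.9, limma adjusted p = 0.818).

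A further 2 intronic Erbb4 regions were called in all 6 proximal libraries and in 1 library of each distal group. The region at 433 kb (68674171 to 68675123) had proximal percentiles of 70.1, 92.7 and 33.7 in WENR-plus and 90.0, 29.9 and 71.5 in WENR-minus, and distal values of 2.9 and 25.7. The region at 641 kb (68466277 to 68467062) ranged from 32.9 to 85.2 over its 8 libraries. Neither passed the test of calls between sites (6 against 2 libraries, exact Fisher p = 0.0606, adjusted p = 0.582).

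Among the ligands, Ereg (epiregulin, a ligand of Egfr and Erbb4) had 7 regions, 4 of them in at least 7 libraries. The gene lies at 91074622 to 91093646 on the plus strand of chromosome 5. With 11.9 regions per 100 kb it had the highest density of the set, at the 99.1 percentile of protein-coding genes. The strongest lay past the 3′ end, 35.7 kb from the start and 29.3 kb before Areg (91109969 to 91110910, intergenic), and was the only member region present in all 12 lists of equal length. Percentiles there were 92.3, 97.0 and 96.4 in proximal WENR-plus and 97.2, 91.1 and 94.7 in proximal WENR-minus. Distal values were 79.5, 90.8 and 79.7 in WENR-plus and 93.4, 91.0 and 67.4 in WENR-minus. The fold enrichment over input ran from 6.99 to 18.8. Library summits spread over 274 bp, and 4 of the 12 libraries had the Cdx2 motif within 50 bp of their own summit. With summits linked within 100 bp, 2 member regions, Btc -13.8 kb and Hbegf -10.0 kb, were still called in all 12 libraries, and this Ereg region was not.

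The medium made little difference at this Ereg region. Proximal means were 95.2 ± 2.55 with the factors and 94.3 ± 3.07 without them (SD, n = 3 each). Distal means were 83.4 ± 6.48 and 83.9 ± 14.4 in the same order. Over both sites the difference was 0.19 points with a 95% interval of -9.50 to 9.87 (limma, adjusted p = 0.995). Proximal lists placed the region 11.1 points higher than distal ones (SE 4.35, interval 1.46 to 20.8), which did not pass (limma adjusted p = 0.184).

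The Ereg region nearest to a start site of any member lay 2.0 kb inside the gene (91075855 to 91076911) and was called in 11 libraries. Its proximal percentiles were 79.3, 90.2 and 87.5 with the factors and 84.0, 82.9 and 82.9 without them. Distal ones were 36.7 and 37.1 in WENR-plus replicates 2 and 3, and 76.2, 71.7 and 34.0 in WENR-minus. All 6 proximal values exceeded all 5 distal ones, and the share of all regions that separate likewise was not counted. These percentiles come from lists of unequal length, the proximal ones being longer on average. In fold enrichment the lowest proximal value was 7.29 and the highest distal one 7.098. Between media in the proximal colon the difference was 2.42 points (interval -7.69 to 12.5, limma adjusted p = 0.937). One other member region lay within 3 kb of an annotated member start, at an internal Lrig1 transcript, and it was called in 1 library.

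A further 2 Ereg regions lay between these. That at 24.2 kb (91098332 to 91099254) was called in 10 libraries with percentiles of 23.7 to 90.6. That at 31.7 kb (91106164 to 91106647) was called in all 6 proximal libraries and in distal WENR-plus replicate 1. Proximal values were 4.7, 54.2 and 76.5 with the factors and 70.5, 52.5 and 81.2 without them, and the distal library had 64.2. The spread among the WENR-plus replicates exceeded the difference of -22.9 points between media (SE 20.3, interval -74.6 to 28.7, limma adjusted p = 0.876).

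Areg (amphiregulin, an Egfr ligand with low affinity) lies beyond Ereg on the same strand and had 5 regions, of which 3 were called in at least 6 libraries. Regions 17.8 kb (91156576 to 91157522) and 23.5 kb (91162727 to 91163399) from its start, both past its 3′ end, were called in 9 libraries each. The latter had proximal percentiles of 63.2, 68.2 and 86.4 with the factors and 67.0 without them, in replicate 1. It had distal values of 28.8, 25.3 and 67.0 in WENR-plus, and of 59.7 and 73.6 in WENR-minus replicates 1 and 3. Those of the former ran from 32.9 to 75.8. A region 15.2 kb upstream of Areg (91124293 to 91124581), was called in 5 WENR-plus libraries and 1 WENR-minus library, with the same p as the upstream Egfr region. It was a weak peak, with percentiles of 9.6 to 66.9.

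Btc (betacellulin, a ligand of Egfr and Erbb4) had 3 regions. One lay 13.8 kb upstream of the start on the minus strand (91416515 to 91417051, intergenic) and was called in all 12 libraries. Proximal percentiles were 87.0, 91.6 and 65.6 with the factors and 90.3, 86.3 and 64.4 without them. Distal ones were 33.5, 81.5 and 64.7 with the factors and 62.4, 45.3 and 74.9 without them. The media did not separate, and the lowest proximal value was below the 3 highest distal ones. The medium difference over both sites was 0.05 points (SE 8.97, limma adjusted p = 1.00) and the site difference 20.5 points (SE 8.97, interval 0.58 to 40.5, adjusted p = 0.222). The Cdx2 motif was absent at the strongest summit, while 7 of the 12 libraries had it within 50 bp of their own summit, since summits spread over 134 bp. A region past the 3′ end (91345439 to 91345826) was called in 7 libraries with percentiles of 6.1 to 91.6.

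Hbegf (heparin-binding EGF-like growth factor, a ligand of Egfr and Erbb4) had 2 regions, both upstream. The first, 10 kb from its start (chromosome 18, 36525512 to 36526161), was also 2.31 kb from the start of Slc4a9, an anion exchanger gene, and was called in all 12 libraries. Percentiles were 94.1, 94.0 and 77.8 in proximal WENR-plus and 83.4, 78.8 and 74.5 in proximal WENR-minus. Distal values were 75.5, 90.8 and 76.4 with the factors and 11.4, 34.9 and 56.5 without them. There every WENR-minus value was below every WENR-plus value, a separation whose share over all regions was not counted. In the proximal colon the groups overlapped. Between libraries of the same replicate number, the value was lower without the factors in all 3 proximal comparisons. In the distal colon this follows from the separation of the groups. No source states that a number marks the same mouse.

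At this region the distal mean was 80.9 ± 8.61 with the factors and 34.3 ± 22.5 without them (SD, n = 3 each), a difference of 46.6 points (SE 12.7, interval 14.3 to 79.0). Over 2445 regions tested the limma adjusted p was 0.544. In the proximal colon the means were 88.7 ± 9.37 and 78.9 ± 4.45, a difference of 9.73 points (SE 5.93, interval -5.39 to 24.9, limma adjusted p = 0.850). The effect over both sites was 28.2 points (SE 8.96, limma adjusted p = 0.710), and its difference between the sites was -36.9 points (SE 14.4, adjusted p = 0.898). None of these passed the limma test after adjustment.

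The second Hbegf region, 6.4 kb upstream (36522082 to 36522388), lay 5.91 kb from the start of Slc4a9 and 0.351 kb from that of AC147220.1. It was called in all 3 proximal WENR-plus and in no proximal WENR-minus library. Its percentiles there were 60.4, 46.5 and 33.7. It was also called in 1 library of each distal group, at 33.5 and 34.0.

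Tgfa (transforming growth factor alpha, an Egfr ligand) had 5 regions, none in more than 5 libraries. The leading one lay in the gene body 66.7 kb from the start (86261566 to 86262125 on chromosome 6), with percentiles of 45.7 and 75.4 in proximal WENR-plus replicates 1 and 3, 77.9 in proximal WENR-minus replicate 1, 42.7 in distal WENR-plus replicate 2 and 29.3 in distal WENR-minus replicate 2. Its calls were spread over all 4 groups.

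Lrig1 (a transmembrane protein that lowers the level of ErbB receptors) lies on the minus strand of chromosome 6 (94604529 to 94700158) and had 11 regions, 4 of them in at least 7 libraries. With 8.11 regions per 100 kb it was at the 96.5 percentile of protein-coding genes. Its widely shared regions lay within 20 kb of the start, 3 upstream and 1 in an intron.

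The farthest upstream, at -18.9 kb (94718613 to 94719453), had percentiles of 93.2, 93.2 and 89.4 in proximal WENR-plus and 81.3, 59.0 and 81.2 in proximal WENR-minus. Distal values were 45.2, 78.5 and 61.0 in WENR-plus and 36.6 and 42.6 in WENR-minus replicates 1 and 3. Every WENR-plus value exceeded every WENR-minus value of the same site, and the share of all regions that separate likewise was not counted. The proximal difference was 18.1 points (SE 7.17, interval -0.16 to 36.4, limma adjusted p = 0.813).

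The region at -15.1 kb (94715053 to 94715986) was also called in 11 libraries. Proximal percentiles were 81.6, 76.7 and 76.5 with the factors and 75.8, 25.1 and 48.1 without them. Distal ones were 45.2 and 60.4 with the factors and 15.6, 18.8 and 15.5 without them. Again the media did not overlap within a site, with no share over all regions counted. The proximal difference of 28.6 points was the largest among the 12 member regions tested there (SE 13.3, interval -5.23 to 62.4, limma adjusted p = 0.813). Each of these regions lacked a call in 1 distal library and so had no test in the distal colon.

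Another 2 Lrig1 regions closer to the gene were called mainly in the proximal colon. That at -9.9 kb (94709735 to 94710315) was called in all 6 proximal libraries, at 75.4, 83.0 and 88.5 in WENR-plus and 70.5, 82.9 and 68.2 in WENR-minus, and in distal WENR-plus replicate 2 at 18.7. It and the Ereg region at 31.7 kb had the same call pattern of 6 proximal against 1 distal library (exact Fisher p = 0.0152, adjusted p = 0.289). The region at -7.6 kb (94707556 to 94707852) was called in the 3 proximal WENR-plus libraries alone, at 21.4, 68.4 and 38.1. An intronic region at 7.6 kb (94692346 to 94692666), chosen after its values were seen, was called in 4 proximal and 0 distal libraries (exact Fisher p = 0.0606, adjusted p = 0.582), at 0.54, 37.4 and 23.7 in WENR-plus and 12.3 in 1 WENR-minus library.

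The intronic Lrig1 region at 3.3 kb (94696556 to 94697221) was called in 6 distal and 4 proximal libraries (exact Fisher p = 0.455, adjusted p = 0.889), and its percentiles overlapped between the sites. Distal values were 67.2, 89.5 and 90.7 in WENR-plus and 72.4, 63.2 and 87.8 in WENR-minus. Proximal values were 45.7, 67.8 and 23.7 in WENR-plus and 32.2 in WENR-minus replicate 3. In lists of equal length 5 distal and no proximal library kept it. Between media in the distal colon it differed by 8.05 points (SE 9.73, interval -16.8 to 32.9, limma adjusted p = 0.937).

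**Figure D2:**
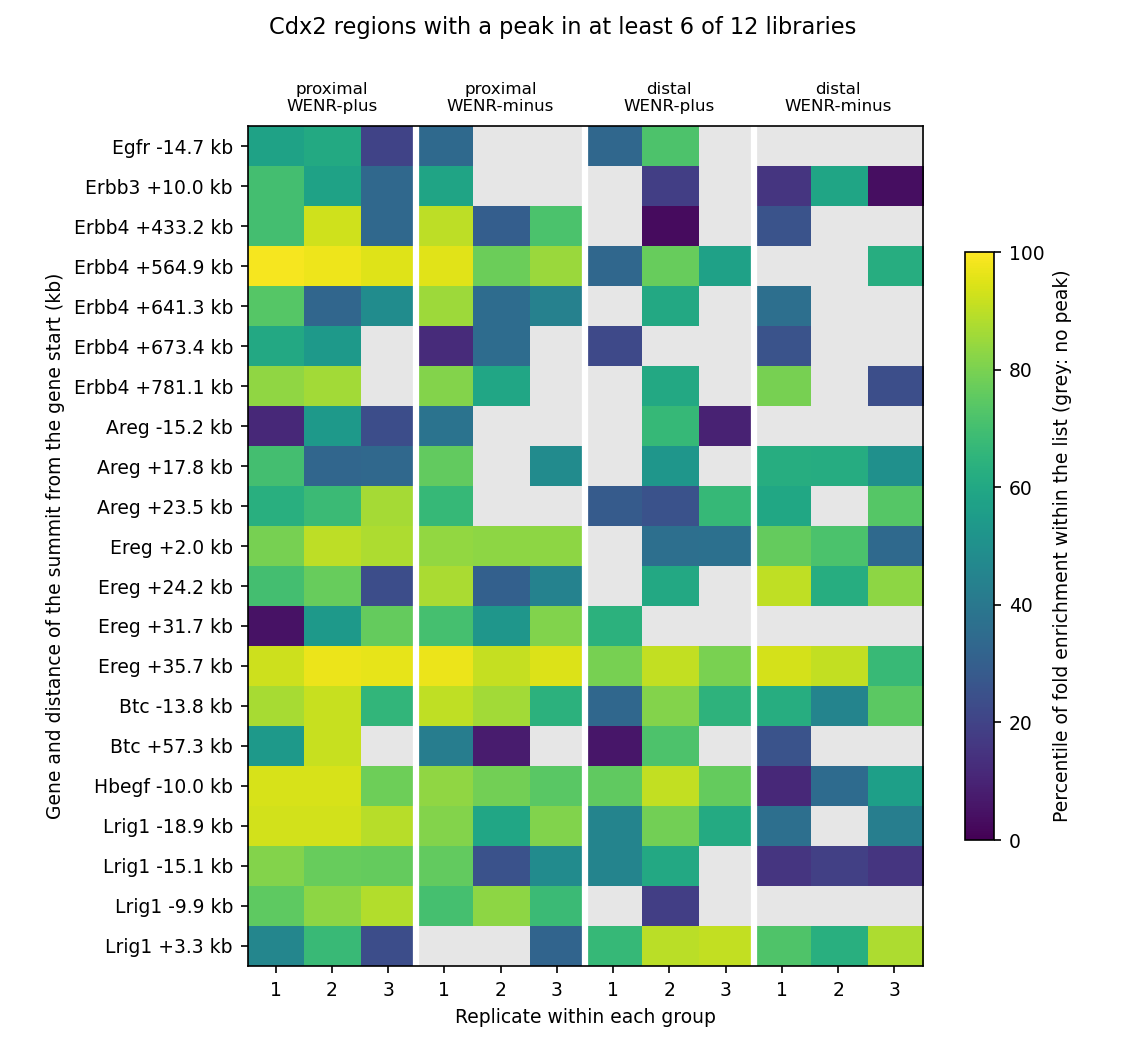
Percentile of fold enrichment within each list (colour, 0 to 100) at the 21 regions with a peak in at least 6 libraries, by group and replicate, with grey where no peak was called. The row Ereg +35.7 kb is high in all 12 columns, Lrig1 -9.9 kb is filled in the 6 proximal columns and 1 distal one, and Hbegf -10.0 kb is low in the 3 distal WENR-minus columns.

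The first comparison over all regions asked whether removal of the 4 factors changed where Cdx2 was called. Of 35518 regions called in at least 2 libraries, 0 passed the exact Fisher test of WENR-plus against WENR-minus at an adjusted p under 0.05 (0% called), and 67 had an unadjusted p under 0.05 (0.189%). Among the 60 member regions tested, 0 did so at either level, and the lowest p was 0.0801. A region called in 4 libraries or fewer, or in 8 or more, could not reach an unadjusted p under 0.05 for medium or site. Splits of 4 against 0 and of 6 against 2 libraries both give 0.0606 by the exact Fisher test, so for such regions the count of 0 was fixed beforehand. The smallest p that 6 against 6 libraries allow is 0.00216. This test treats the 6 libraries of a group as independent, although they came from 3 mice. The median difference was 0 libraries for members and for all regions.

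Within a site, 3 against 3 libraries were counted without a test. Of 98 member regions with a proximal call, 2 were called in all 3 WENR-plus and no WENR-minus library, the Hbegf region at -6.4 kb and the Lrig1 region at -7.6 kb. This was 2.04%, against 0.795% of all 57245 regions with a proximal call, and the opposite pattern had 0 members against 0.128%. Of 47 member regions with a distal call, 0 showed either pattern (0.295% and 0.941% of 26781 regions). In lists of equal length neither of the 2 regions kept this pattern. The proximal WENR-plus lists were also longer, 29272 ± 14498 peaks against 18423 ± 8532 (SD, n = 3). More WENR-plus than WENR-minus calls were found at 60.2% of member regions and at 59.8% of all regions in the proximal colon. The part of list length in the 2 patterns was not tested further.

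Fold percentiles gave the same count. Over both sites, 3 member regions were among the 2079 tested and 0 passed (0% of all regions), with 1 of 3, at Hbegf, at an unadjusted p under 0.05 (6.54% of all). In the proximal colon 12 of 6005 regions were members, 0 passed (0% of all), and 0 had an unadjusted p under 0.05 (6.09% of all). In the distal colon 4 of 2445 were members, 0 passed (0.0409% of all) and 1 had an unadjusted p under 0.05 (6.26% of all). For the difference of the medium effect between the sites, 0 of 3 members passed (0.144% of all), and 1 had an unadjusted p under 0.05 (5.05% of all). The limma medians of the medium effect were 2.63 points for members and 4.11 for all regions in the proximal colon, and 3.75 and -2.46 in the distal colon.

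**Figure D3:**
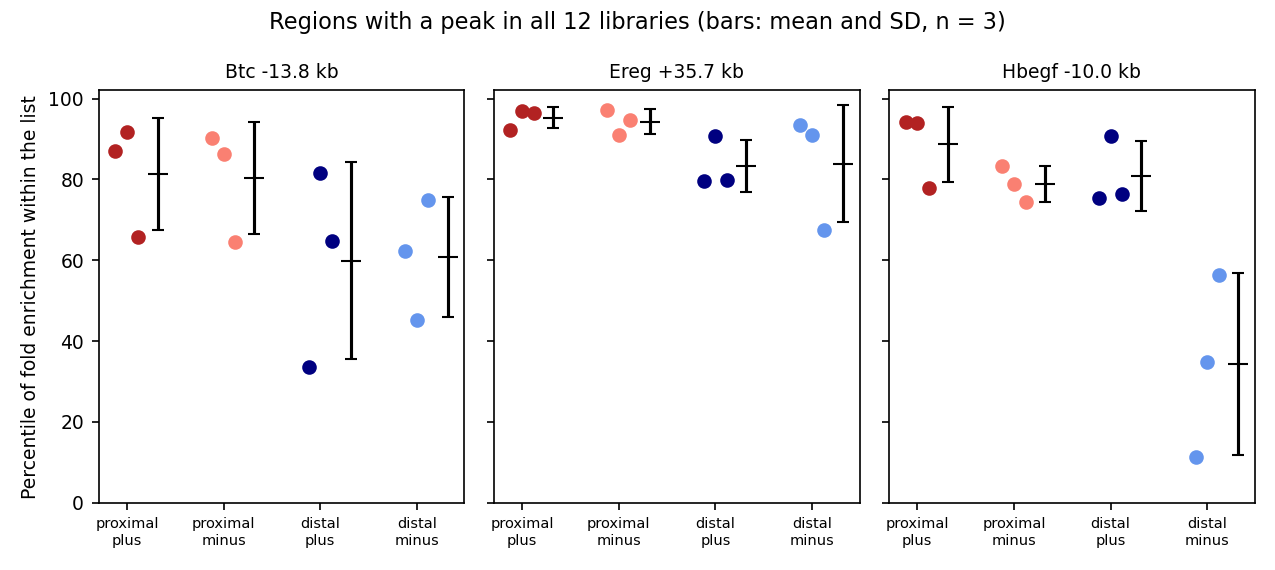
Percentile of fold enrichment within the list at the 3 member regions with a peak in all 12 libraries, with 1 dot per library and the mean and SD of 3 replicates beside them. The distal WENR-minus dots of Hbegf -10.0 kb, at 11.4 to 56.5, lie below the other groups, while at Ereg +35.7 kb and Btc -13.8 kb the media overlap in both sites.

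The second comparison was between the sites. On calls, 0 of the 60 member regions passed (0% of all 35518), and 2, at Ereg and Lrig1, had an unadjusted p under 0.05 (3.33% of members, 5.24% of all). The median region was called in 2 more proximal than distal libraries, for members and for all regions alike. On fold percentiles, 0 of 3 members passed limma's test (1.35% of all) and all 3 had an unadjusted p under 0.05, with the proximal colon higher (21.4% of all). The median site effect was 7.44 points over all 2079 regions tested, in the same direction, and 11.1, 20.5 and 26.2 points at Ereg, Btc and Hbegf. On the log2 fold scale 0 of the 3 had an unadjusted p under 0.05, and the proximal minus distal differences were 0.26 at Ereg, 0.076 at Hbegf and -0.012 at Btc. In lists of equal length Ereg alone was tested, with a difference of 4.59 points (limma adjusted p = 0.764). The Hbegf percentile difference had an SE of 8.96 and an interval of 6.26 to 46.1 (limma adjusted p = 0.151).

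Counts of member regions per library followed list length. They ran from 10 in distal WENR-plus replicate 3 to 76 in proximal WENR-plus replicate 2, the shortest and the longest list. Proximal means were 50.3 ± 25.0 with the factors and 29.3 ± 13.7 without them, and distal means were 17.0 ± 8.89 and 19.7 ± 9.29 (SD, n = 3 each). Per 10000 peaks of the list they were 17.5 ± 1.97 and 16.0 ± 1.55 in proximal, and 19.0 ± 1.18 and 17.0 ± 3.94 in distal organoids, so that the media overlapped within each site. In lists of equal length they were 9.33 ± 3.06 and 9.0 ± 1.73 in proximal, and 11.3 ± 1.15 and 7.33 ± 3.06 in distal organoids, and the distal libraries held 10 to 12 regions with the factors against 4 to 10 without them.

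The make-up of these counts differed between lists. Receptors, mostly Erbb4, gave 52 of 76 regions in the longest list and 1 of 10 in the shortest, where ligands gave 7. Ligand regions ranged from 7 to 15 per library and Lrig1 regions from 2 to 9.

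**Figure D4:**
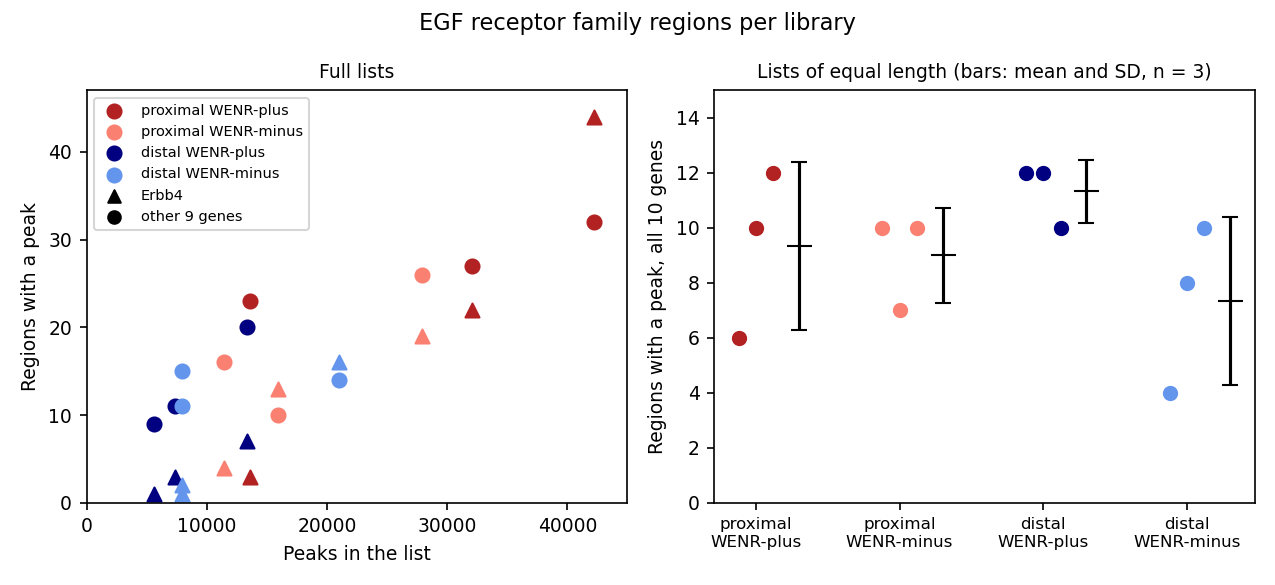
Left, the number of member regions with a peak against the number of peaks in each list, with triangles for Erbb4 and circles for the other 9 genes, coloured by group. Right, member regions kept when each list was reduced to its 5608 peaks of highest −log10 q, with 1 dot per library and the mean and SD of 3 replicates; counts lie between 4 and 12.

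Erbb3, Ereg and Hbegf had no promoter entry and were not examined in this way. For the other 7 members, no peak in any library overlapped the promoter window, from 250 bases before to 50 after the start in RefSeq (GRCm38). The share of all promoters overlapped by a peak was not counted, so this has no background. The Cdx2 motif was present in 1 of the 7, that of Erbb4, and in 14.4% of 32851 promoters. By position, 78 member regions lay in gene bodies, 13 upstream and 12 downstream, whereas among the 21 widely shared ones 8, 7 and 6 did.

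Other genes of the pathway were taken as a list of 44, comprising 6 more ligands, 4 shedding factors, 12 feedback regulators, 16 signal transducers and 6 transcriptional targets. Together 35 of them had 172 regions and 9 had none. Of the 172, 3.49% were called in all 12 libraries, against 2.91% of member regions and 3.38% of all regions. With window lengths not matched between genes, a region in all 12 libraries was found at 6 of the 44 (13.6%), against 3 of 10 members and 7.72% of protein-coding genes. These were Nrg3, a neuregulin, Cbl and Cblb, ubiquitin ligases that take receptors to degradation, Spred2, an inhibitor of RAS signalling, Gab1, a docking protein, and Map2k1, which encodes the kinase MEK1. Median percentiles there were 96.0 at Nrg3, 94.0 at Map2k1, 82.6 at Cblb, 81.6 at Cbl, 73.8 at Gab1 and 43.0 at Spred2. Among those tested for calls, 0 passed for medium or site, in either direction. On fold percentiles 0 of 6 passed for medium, site or their interaction, and 0 of 21 proximal and 0 of 7 distal regions passed for medium (limma, lowest adjusted p = 0.407). At an unadjusted p under 0.05, calls were higher in WENR-plus at 1 of 105 regions (0.189% of all) and in proximal at 5 of 105 (5.24% of all). Percentiles were higher in WENR-plus at 2 and lower at 1 of the 6 (6.54% of all), and higher at 2 of the 21 in the proximal colon (6.09% of all).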

How the data were processed

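The 12 Cdx2 peak lists were analysed, and 12 input libraries were not analysed here except as the authors' controls. Per the study's methods, with versions from the submitters' processing notes, reads were cleaned with Trimmomatic 0.39 and mapped to mm10 by Bowtie2 2.4.5, and duplicates were deleted in SAMtools 1.13. The study's supplement names other versions of Bowtie2 and SAMtools. For each library the authors then ran MACS2 2.2.7.1 with its matched input and a q-value limit of 0.01. The score deposited by the authors is made from the −log10 q-value. The deposited fold is the ratio of summit signal to local background. For every summit −log10 values of p and q were deposited too. Read depths stated by the study were not used here.

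Members and gene lists were chosen with earlier results of these data known. Of 207307 peaks, 1024 on other contigs were left out. Peaks overlapping by 1 bp were merged into regions and annotated with GENCODE vM21 (promoter: within 3 kb of a start). mm10 is the same assembly as GRCm38, and no peak ended past a chromosome. Fold was ranked within each list (ties averaged). Calls were compared by the exact two-sided Fisher test (scipy 1.17.1) over regions in at least 2 libraries, and percentiles by limma 3.58.1 in R 4.3.3 over regions called in every library compared, with Benjamini-Hochberg adjustment over all regions tested. Both were tested on simulated data. Named regions were those called in most libraries per member, those called in all of one group and none of the other, those with an unadjusted p under 0.05, the 3 with the largest medium difference per site, and those within 3 kb of a member's start. Regions called widely that are named beside them were added after their values were seen.

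Replicates came from 3 mice, but no source states that a number marks the same mouse. Deviations from group means of same-numbered libraries over 2079 regions correlated at 0.136 to 0.368 between media in the proximal colon, so these met the criterion for pairing, and at -0.061 to 0.26 in the distal colon, where they did not. Between the sites in 1 medium they correlated at 0.078 to 0.327. Values printed are from fits without the block, the design set at the outset. The Fisher tests and the fits over both sites thus treat the 12 libraries as independent, although they came from 3 mice. A fit with the replicate as block, or for calls an exact permutation within pairs, was made for each test as an alternative.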

Additional observations from a re-analysis of the deposited data

How the results depend on the processing

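No call of a member region at an adjusted p under 0.05 was gained in the tests of medium (both sites, proximal or distal), of calls between sites or of the interaction, under lists of equal length, a −log10 q of at least 5, summits linked within 100 bp, leaving out each replicate number, log2 fold, percentiles of −log10 p or a minimum of 3 libraries, as far as each applied. The site effect on percentiles gained 1 called member region without replicate 2 (Lrig1 at -18.9 kb, 39.9 points, limma adjusted p = 0.0220), among 16 of all 2454 regions, so the range over left-out replicates was 0 to 1. It gained 6 of 60, among 2397 of all 35518 regions, where a library without a peak was set to percentile 0: Lrig1 at -9.9 kb (75.0 points higher in proximal), -18.9 kb (38.9) and 3.3 kb (-50.2), Erbb4 at 433 kb (59.9) and 565 kb (53.3), and Ereg at 2.0 kb (41.9). That setting counts a missing call as the lowest rank, and proximal lists were longer. Over all regions, log2 fold in place of percentile called 23 regions for medium and 361 for site, where percentiles called 0 and 28.

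With the replicate block, 0 member regions passed in each of the 7 tests. In the proximal colon, where the numbers met the criterion for pairing, the blocked limma adjusted p was 0.631 for Lrig1 at -15.1 kb and 0.635 at -18.9 kb. Under the block the unadjusted p of the 2 site differences in calls rose to 0.0625, and that of the distal Hbegf difference was 0.0246 (adjusted p = 0.840). Of 12 libraries, 8 correlated best with their own number in the other medium.

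The number of member regions was 103, and it was 29 in lists of equal length and 62 at a −log10 q of at least 5. It was 78 in gene bodies alone, 118 with 50 kb to either side, 126 with linked summits, 75 to 100 without 1 replicate number and 78 without proximal WENR-plus replicate 2, a setting added after the data were seen.

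Small differences changed sign. The site effect at Btc -13.8 kb was -0.012 on the log2 scale. Its distal medium effect of -0.95 points became 4.97 at a −log10 q of at least 5 and 0.14 on the log2 scale, and ran from -19.5 to 13.0 without 1 replicate number. That of Lrig1 at 3.3 kb ran from -1.13 to 14.7. The Hbegf effect at -10.0 kb kept its direction under every alternative that gave a value, at 37.6 to 60.0 points in the distal colon, with adjusted p of at least 0.465 on percentiles and 0.302 on the log2 scale.

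The 3 libraries a group and the unequal list lengths limit these comparisons: 60 member regions entered the tests of calls, and 3 the tests of percentiles across all libraries.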

Other observations

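Erbb4 was the member with most regions. Its number of peaks per 10000 peaks of the list was compared across the 12 libraries with that of 3771 protein-coding genes that had at least 4 regions and lay apart from the members. The genes most like it by Spearman's rho, as a description over 12 libraries that share list length and quality, were Gm8871 (0.93), Naaladl2 (0.92), Mmp16 (0.91), Ror1 (0.90) and Foxp2 (0.89). Naaladl2 had 41 regions and Foxp2, a forkhead transcription factor gene, had 20. Erbb4 regions made up 10.4 per 10000 peaks in proximal WENR-plus replicate 2 and 1.27 in distal WENR-minus replicate 2, whereas regions of the other 9 genes ran from 6.27 in proximal WENR-minus replicate 2 to 19.0 in distal WENR-minus replicate 3.

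Beyond the window of 20 kb, the nearest peak lay 20.5 kb from Areg and 22.8 kb from Btc, and the nearest at Hbegf, 27.8 kb away, belonged to a region called in 9 libraries.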
